A study of Mus musculus with 18 samples.

Results

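Insulin was given to AML12 hepatocytes, an immortalized line of mouse liver cells, in the presence of recombinant mouse serum albumin (rMSA), and the mRNA of these cells was compared with that of cells given rMSA alone. The comparison uses 6 of the 18 libraries of the series. In 3 libraries the cells had 600 µM rMSA and 10 nM insulin for 24 h (rMSA + insulin), and in 3 libraries they had 600 µM rMSA without insulin for 24 h (rMSA). Both groups were kept overnight without serum before treatment, and both came from cultures whose medium had held insulin and dexamethasone, a synthetic glucocorticoid. Another 3 libraries with 10 nM insulin and 3 with vehicle, all without rMSA, were used only to test whether the insulin effect differed with and without rMSA. Every gene whose TPM averaged 1 or more across these 6 libraries was included, which gave 10882 of the 15579 genes of the AML12 table. Abhd3, with a mean of 1 TPM, lay just inside this limit, and Ankrd44, with 0.998 TPM, just outside. Expression is given as TPM (a gene's share of all transcripts in its library, scaled to a fixed total), and read depth is unknown because TPM keeps no counts. AML12 cells are 1 cell line, and the labels do not state whether replicate libraries are independent cultures. Every p-value below is thus set by how far these samples lay apart, which may be technical.

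Insulin binds its receptor, INSR, which passes the signal through the docking proteins IRS1 and IRS2 to PI3 kinase and AKT. In the liver AKT keeps the transcription factor FOXO1 out of the nucleus, which lowers gluconeogenic and growth-arrest genes, and it favors lipid synthesis through SREBP1. AKT also activates mTORC1, which raises protein synthesis, the making of ribosomes and, through the transcription factor ATF4, the genes of serine, one-carbon and amino acid metabolism. ATF4 is also the main effector of the integrated stress response, which several kinases start by phosphorylating the translation factor eIF2α. Albumin is the main carrier of fatty acids in plasma and is made by hepatocytes themselves.

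Most ATF4 targets and serine and one-carbon genes were higher in rMSA + insulin than in rMSA, whereas genes of cholesterol synthesis, FOXO1 targets, cell cycle genes and many long transcripts were lower. With limma on log2(TPM + 1), 1307 genes rose (12.0% of those tested) and 3333 fell (30.6%) at a Benjamini-Hochberg adjusted p under 0.05. All fold changes below are rMSA + insulin over rMSA on this scale unless another comparison is named, and "rose" and "fell" are used of genes that passed this limit. When a log2 fold change of 1 or more in size was also required, 46 genes were called higher (0.423%) and 301 lower (2.77%). The 3 values of a group lay wholly above or below those of the other for 2023 genes that were higher (18.6%) and 4029 that were lower (37.0%) with insulin. Over all genes tested the log2 fold change had a median of -0.15. Centring each library on its median moved it by 0.21, and 3105 genes then rose and 2615 fell. The counts depended on single libraries, with 1110 genes that fell when rMSA library 1 was left out, 1001 without rMSA library 2 and 1607 without rMSA + insulin library 1, where 739, 643 and 729 genes rose. When all 12 AML12 libraries were fitted with 1 shared spread, 325 genes rose and 122 fell. Of the 45 named genes that rose, 36 passed in that fit, and of the 42 named genes that fell 6 did (Mki67, Kif11, Ccna2, Cd14, Ccl9 and Peg3). In the same fit 2 of the insulin libraries without rMSA stood apart, with 33.3% and 36.0% of their TPM in genes of ribosomal proteins against 26.6% in the third.

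The libraries of a group were not alike, and falls were more frequent among long transcripts and among those of low GC content. The first principal component of the 6 libraries held 84.0% of the variance, and its scores were -20.2, -39.8 and -9.15 in rMSA + insulin libraries 1 to 3, against 33.9, 25.0 and 10.3 in rMSA libraries 1 to 3. The groups therefore lay on either side of 0, with the third library of each nearest to the other group. Genes were split into 5 bins of equal size by GC content and by length. In the bin of lowest GC content 52.5% fell and 2.26% rose, whereas in that of highest 10.1% fell and 25.7% rose. In the bin of longest transcripts 47.0% fell and 3.11% rose, and in that of shortest 20.8% fell and 19.9% rose. Across genes the log2 fold change had a Spearman rho of 0.48 with GC content and -0.33 with length (10606 genes with a length), where genes are not independent and share the same 6 libraries. Transcripts over 5000 bases (929 genes) deviated from their mean over the 6 libraries by a median of -0.20, -0.41 and -0.04 in rMSA + insulin libraries 1 to 3, against 0.39, 0.26 and 0.02 in rMSA libraries 1 to 3 (log2). The share of TPM in cytosolic ribosomal protein genes was 25.2%, 27.3% and 24.1% in rMSA + insulin, against 21.9%, 23.3% and 25.1% in rMSA. The mean difference of 2.08 percentage points did not pass a two-sided exact permutation test (p = 0.2, where the smallest p that 3 against 3 allows is 0.1). The part of this gradient in the falls was not tested. Removing the trends with length and GC content from every library left 2654 genes that rose and 2662 that fell, with 52 called higher and 57 lower. This setting also centres each library (median log2 fold change 0.01), so a near-even split of rises and falls is in part built in. Values under it, here and below, combine a shift of all genes with the removal of the trends.

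**Figure D1:**
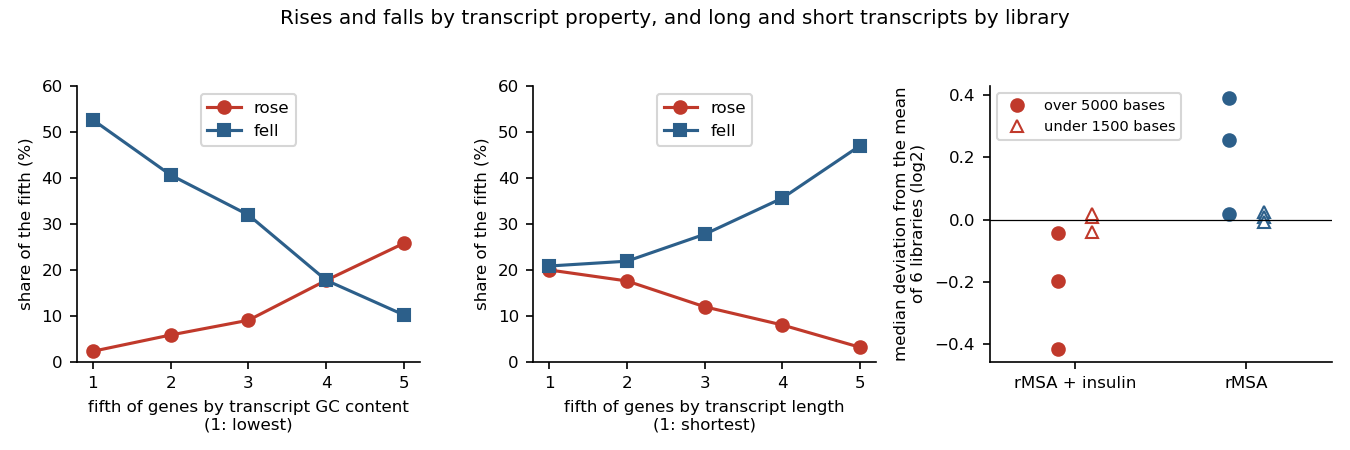
Share of genes that rose or fell with insulin (y axis, %) in 5 bins of transcript GC content and of transcript length, and, in the right panel, the median log2 deviation of long and short transcripts in each library, rMSA + insulin left of rMSA. The share that fell is 52.5% in the bin of lowest GC content and 10.1% in that of highest, and long transcripts are spread from -0.41 to 0.39 between libraries while short ones stay close to 0.

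The clearest group of rises was the list of ATF4 targets and serine and one-carbon genes. Of its 36 tested members, 23 rose and 1 fell, with a median log2 fold change of 0.53 against -0.15 over all genes. Nupr1, a stress-induced chromatin protein, had 623, 763 and 670 TPM in rMSA + insulin, against 180, 191 and 177 TPM in rMSA. Its log2 fold change was 1.90 (SE 0.08, limma adjusted p = 9.91e-05), the smallest p of any gene. Ddit3, which encodes the pro-apoptotic factor CHOP, had 244, 331 and 263 TPM in rMSA + insulin, against 62.5, 77.5 and 56.0 TPM in rMSA (log2 fold change 2.08, SE 0.14, limma adjusted p = 0.000470). For both genes every rMSA + insulin library lay far above every rMSA library. Atf3, a stress-induced repressor of the ATF family, had 46.3, 57.3 and 54.7 TPM in rMSA + insulin, against 15.5, 17.1 and 14.7 TPM in rMSA (1.68, SE 0.10, limma adjusted p = 0.000446). Trib3, a pseudokinase that binds AKT, had 178, 211 and 206 TPM in rMSA + insulin, against 65.1, 86.8 and 61.0 TPM in rMSA (1.48, SE 0.13, limma adjusted p = 0.00135). The groups of these genes were fully apart.

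Other genes of the pathway rose too, most of them by less. Atf4 itself averaged 766 ± 26.6 TPM in rMSA + insulin and 508 ± 35.3 TPM in rMSA (SD, n = 3 each, log2 fold change 0.59). Ppp1r15a, which encodes GADD34, a subunit that directs dephosphorylation of eIF2α, is not in this list and averaged 118 ± 11.9 TPM in rMSA + insulin and 37.3 ± 4.20 TPM in rMSA (SD, n = 3 each, 1.63). Gdf15, a stress-induced hormone, averaged 42.8 ± 0.707 TPM in rMSA + insulin and 19.0 ± 1.76 TPM in rMSA (SD, n = 3 each, 1.14). The serine and glycine enzymes Psph and Shmt2 had log2 fold changes of 0.82 and 0.72, and Aars and Gars, which charge tRNAs with alanine and glycine, of 0.70 and 0.52. Chac1, which degrades glutathione, had one of 0.74, and Eif4ebp1, the mTORC1 substrate 4E-BP1, of 0.71. The limma adjusted p of these 9 genes lay between 0.000446 and 0.00409. The 1 list member that fell was Slc38a2, an amino acid transporter with a log2 fold change of -0.65, which no longer passed without the length and GC trends (-0.13). Psat1, another serine enzyme, had 389, 342 and 442 TPM in rMSA + insulin, against 444, 420 and 380 TPM in rMSA, and these values overlap. With median centring, quantile normalization or rescaling, 27 to 30 members rose and 1 fell. Without the length and GC trends 28 rose and 0 fell, and in the fit of all 12 libraries 18 rose and 0 fell.

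**Figure D2:**
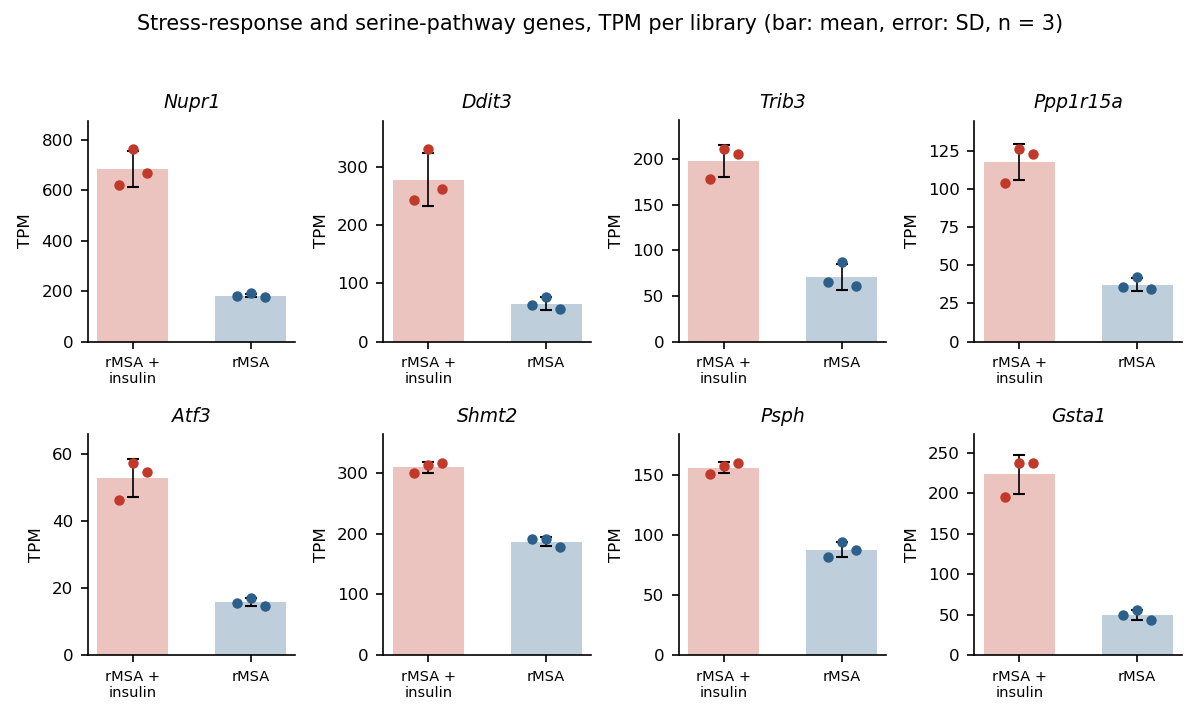
TPM in each library (points) for 8 genes of the stress response, serine synthesis and glutathione conjugation, with rMSA + insulin left of rMSA, bars at the mean and error bars of 1 SD (n = 3). In each panel every rMSA + insulin library lies above every rMSA library, as in Nupr1 with 623 to 763 TPM against 177 to 191 TPM.

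ATF4 binds DNA together with a C/EBP partner at a composite site whose core is TGATGNAA. This motif was chosen after the list's values were seen. It was searched on both strands of the RefSeq promoters (GRCm38.p6, 250 bases before to 50 after each gene's start), and 3.97% of all 32851 promoters hold it, or 4.51% of 27025 genes. Of the 30 list members with a promoter entry, 10 held it, beside 230 of 8806 genes tested that had an entry (2.61%). The list was compiled as ATF4 targets, so this count says nothing about insulin. Among the 46 genes called higher, 33 had an entry and 5 held it, against 7 of 244 genes called lower. Atf3, Nupr1 and Trib3, among those 5, are also on the list, so these counts are not separate. The stretches are shown because they lie before the annotated start of genes that rose, and that of Nupr1 overlaps 2 exons annotated in GENCODE. They have the match in capitals (TTGCATCA and TTTCATCA are the motif read on the opposite strand). Nupr1 and Atf3 are among the largest rises of the list, Chac1 and Gars are other members that rose, and Chchd10, a mitochondrial protein gene whose log2 fold change was 1.39 (adjusted p = 0.00111 by limma), was among the genes called higher outside the list and holds 2 matches. A match of letters is a description and does not show binding.
Nupr1, chr7:126625562-126625591, minus strand: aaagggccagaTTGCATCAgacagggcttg
Atf3, chr1:191183416-191183463, minus strand: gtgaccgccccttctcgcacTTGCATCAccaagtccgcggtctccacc
Chac1, chr2:119351029-119351076, plus strand: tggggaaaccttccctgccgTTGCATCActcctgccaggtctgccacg
Gars, chr6:55037951-55037998, plus strand: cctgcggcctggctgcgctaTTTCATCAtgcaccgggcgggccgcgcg
Chchd10, chr10:75933025-75933072, plus strand: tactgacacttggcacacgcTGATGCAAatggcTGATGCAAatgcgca

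Genes that make ribosomes and run the respiratory chain rose more often than fell. Of 33 tested genes of ribosome biogenesis and MYC targets, 15 rose and 1 fell (median log2 fold change 0.18). Nop56, a core protein of small nucleolar ribonucleoproteins, averaged 381 ± 38.0 TPM in rMSA + insulin and 215 ± 4.98 TPM in rMSA (SD, n = 3 each, 0.82). Srm, the spermidine synthase and a MYC target, had a log2 fold change of 0.72 and Nop2, an rRNA methyltransferase, of 0.54, with limma adjusted p of 0.00135 to 0.00245 for these 3 genes. The member that fell, Npm1 (-0.33), which encodes the nucleolar chaperone nucleophosmin, did not pass without the length and GC trends (-0.03), where 27 of the list rose. Myc itself had 86.2, 70.4 and 104 TPM in rMSA + insulin, against 86.8, 88.5 and 70.9 TPM in rMSA, so that its groups overlap (limma adjusted p = 0.702). Of 79 tested cytosolic ribosomal protein genes, 12 rose and 2 fell (median 0.12), and 0 passed in the fit of all 12 libraries. The rises were near the share over all genes (12.0%), and the falls were fewer (30.6% over all genes). Of 74 nuclear genes of the respiratory chain and ATP synthase, 23 rose and 3 fell (median 0.15). Among the rises were Ndufa5 and Uqcrq, subunits of complexes I and III, with log2 fold changes of 0.59 and 0.60. Transcripts of the ribosomal protein and respiratory chain lists were short, with median lengths of 696.5 and 648 bases, against 2098 bases over all genes. In the bin of shortest transcripts 19.9% of genes rose and 20.8% fell. Without the length and GC trends 18 of the 79 rose and 1 fell, and 29 of the 74 rose and 4 fell. The part of length in these counts was not tested. In the fit of all 12 libraries 4 of the 74 rose, without rMSA library 1 or 2 the count was 10, and without rMSA + insulin library 1 it was 13.

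The NRF2 list, whose genes defend against electrophiles and oxidants, changed in both directions, with 12 of 29 tested members that rose and 7 that fell (median -0.01). The falls depended on single libraries, with 2 without rMSA library 1 or 2, 4 without rMSA + insulin library 1 and 0 in the fit of all 12 libraries, where 8 rose. Gsta1, a glutathione S-transferase on chromosome 9 (78230669 to 78242683), had 195, 238 and 237 TPM in rMSA + insulin, against 50, 55.8 and 43.0 TPM in rMSA (log2 fold change 2.15, SE 0.11, limma adjusted p = 0.000282). The annotated genes Gm3776 (2.21) and Gm10639 (1.90), which follow it on the chromosome, were also among the largest rises. These are near copies of one another, and how reads were divided among them is uncertain. Gsta4 averaged 1054 ± 17.5 TPM in rMSA + insulin and 762 ± 13.4 TPM in rMSA (SD, n = 3 each, 0.47). G6pdx, the first enzyme of the pentose phosphate pathway, had a log2 fold change of 0.60. Among the members that fell were Nfe2l2, which encodes NRF2 itself (-0.82), and Gclc, the catalytic subunit of glutathione synthesis (-0.61). Sqstm1, which encodes the autophagy receptor p62, averaged 2782 ± 183 TPM in rMSA + insulin and 1459 ± 154 TPM in rMSA (SD, n = 3 each, 0.93, limma adjusted p = 0.00135), while of 30 tested autophagy and lysosome genes 2 rose and 14 fell (median -0.21), with 6 and 6 under median centring and 7 falls without rMSA library 1 or 2. The list of endoplasmic reticulum chaperones had 4 that rose and 8 that fell of 27 (median -0.08), near the 12.0% and 30.6% over all genes. Ddit3 and Ppp1r15a, described above, are among the 4 that rose and are not chaperones. Hspa5, the chaperone BiP, had 270, 272 and 309 TPM in rMSA + insulin, against 264, 244 and 233 TPM in rMSA and did not pass (limma adjusted p = 0.061), though it did without the length and GC trends (0.55, limma adjusted p = 0.00075). The counts of the chaperone list moved with the processing, to 13 that rose and 4 that fell without the length and GC trends, and 8 and 4 with median centring. Those of all genes moved too, from 1307 and 3333 to 2654 and 2662 without the trends, and to 3105 and 2615 with median centring.

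**Figure D3:**
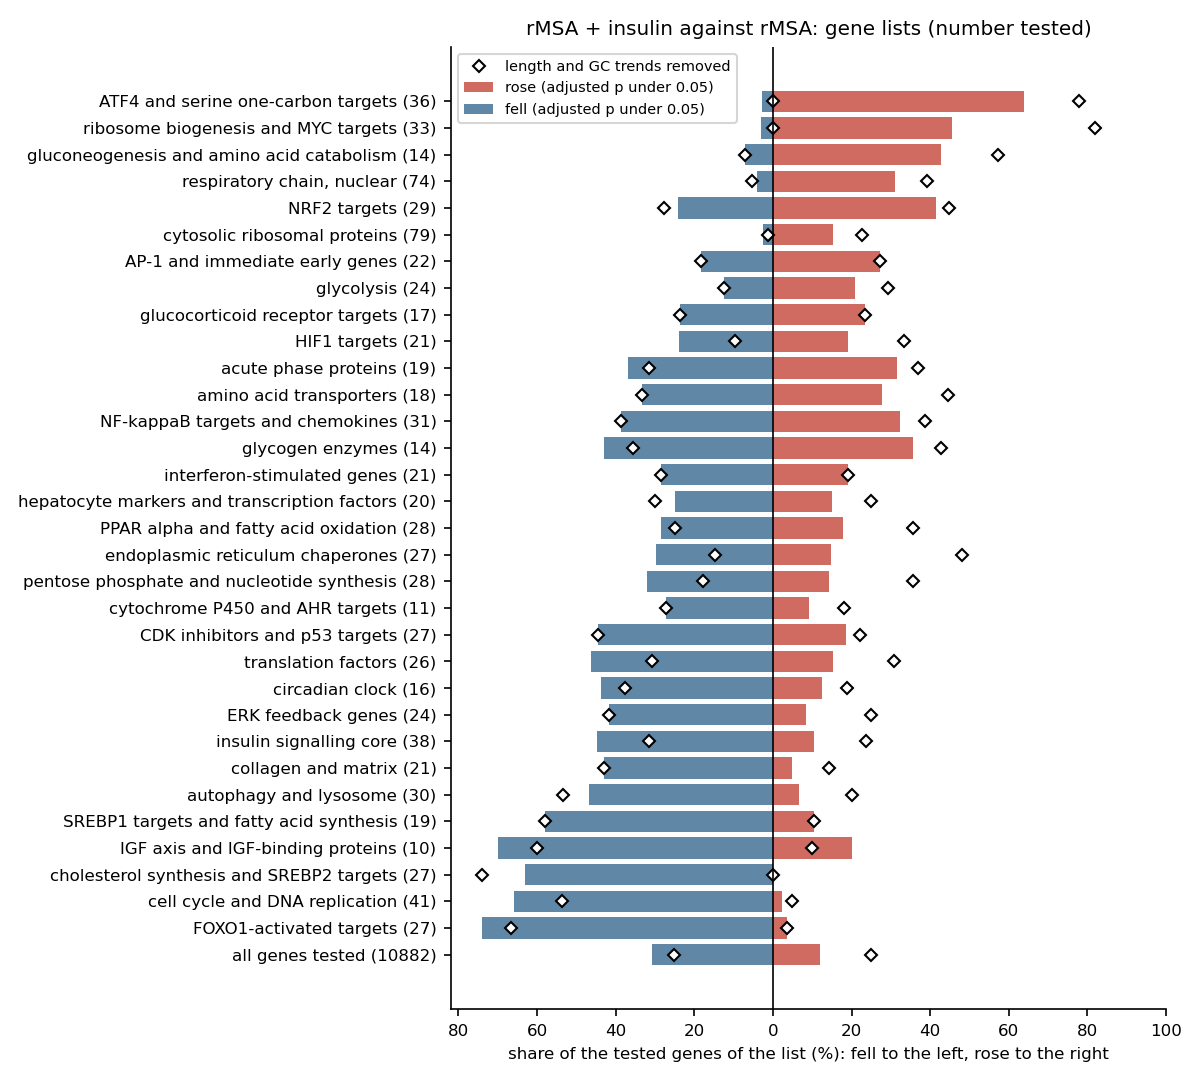
Share of the tested genes of each list that rose (right) or fell (left) in rMSA + insulin against rMSA (x axis, %), with the number tested in brackets and all genes tested in the lowest row. Diamonds give the same shares after the trends with transcript length and GC content were removed. The ATF4 list has 23 of 36 that rose and the cholesterol list 17 of 27 that fell, beside 12.0% and 30.6% over all genes.

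More genes of insulin signalling fell than rose, which was also so over all genes (12.0% rose and 30.6% fell, median -0.15). Of 38 tested, 4 rose and 17 fell (median -0.30). Irs2 had 18.4, 14.2 and 21.3 TPM in rMSA + insulin, against 32.4, 30.7 and 23.8 TPM in rMSA (log2 fold change -0.67, SE 0.17, limma adjusted p = 0.0166). Insr had 6.14, 5.05 and 6.80 TPM in rMSA + insulin, against 11.1, 10.1 and 7.25 TPM in rMSA (-0.57, SE 0.17, limma adjusted p = 0.0294). In both genes the third library of each group lay nearest to the other group, without overlap. Irs1 (-0.46), Igf1r, the IGF1 receptor (-0.55), and Pik3ca, the PI3 kinase catalytic subunit (-0.74), fell by similar amounts. Without the length and GC trends Insr (-0.18), Igf1r (-0.06), Pik3ca (-0.09) and Irs1 (0.00) no longer passed. In that setting 2654 of all 10606 genes rose and 2662 fell, and 9 of the list rose and 12 fell. The count of falls was 4 without rMSA library 1 or rMSA library 2, 6 without rMSA + insulin library 1 and 10 without rMSA + insulin library 2, and in the fit of all 12 libraries 3 rose and 0 fell. Pdpk1 and Rictor, which act on AKT, had log2 fold changes of -1.03 and -1.05. Akt1 averaged 146 ± 9.05 TPM in rMSA + insulin and 151 ± 9.47 TPM in rMSA (SD, n = 3 each), and Akt2 57.8 ± 6.40 and 57.2 ± 3.45 TPM in the same groups. Neither passed (limma adjusted p of 0.590 and 0.941), but without the length and GC trends Akt1 did (-0.21, limma adjusted p = 0.0473). The 4 members that rose include Trib3 and Eif4ebp1, which are also in the ATF4 list.

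Targets that FOXO1 activates were lower with insulin. Of 27 tested, 20 fell and 1 rose, with a median log2 fold change of -0.60 against -0.15 over all genes. Ccng2, an atypical cyclin linked to growth arrest, had 19.2, 12.8 and 20.6 TPM in rMSA + insulin, against 41.9, 38.1 and 31.2 TPM in rMSA (-1.05, SE 0.18, limma adjusted p = 0.00697). Fbxo32, a ubiquitin ligase known from wasting muscle, had 4, 3.48 and 5.19 TPM in rMSA + insulin, against 9.81, 9.94 and 8.02 TPM in rMSA (-0.98, SE 0.15, limma adjusted p = 0.00563). Mxd4, a MYC antagonist, averaged 25.0 ± 4.54 TPM in rMSA + insulin and 48.6 ± 4.29 TPM in rMSA (SD, n = 3 each, -0.94). Klf9, a transcription factor that insulin and glucocorticoids regulate, averaged 14.9 ± 4.43 and 26.4 ± 4.39 TPM in the same groups (SD, n = 3 each, -0.81). The 1 member that rose was Gadd45a, a DNA damage and stress gene that ATF4 also activates, with 115, 117 and 150 TPM in rMSA + insulin, against 69.3, 86.5 and 60.4 TPM in rMSA (0.82, SE 0.15, limma adjusted p = 0.00737). Without the length and GC trends 18 fell and 1 rose, but in the fit of all 12 libraries 0 fell, and without rMSA library 1 or 2 the count was 10 and without rMSA + insulin library 1 it was 13. The best known hepatic FOXO1 targets could not be read in these cells. Igfbp1 and Pck1 were listed at 0 TPM in all 6 libraries, Pdk4 at 0.02 to 0.13 TPM and Txnip at 0 to 0.13 TPM, and G6pc was not analysed here. Ppargc1a, which encodes a coactivator of FOXO1, was near the limit of 1 TPM for testing. It was at 0.890, 0.620 and 0.970 TPM in rMSA + insulin, against 1.70, 1.67 and 1.31 TPM in rMSA. Foxo1 itself was at 5.75, 4.61 and 5.13 TPM against 6.94, 6.39 and 5.34 TPM in the same groups. Foxo1 did not pass (-0.23, limma adjusted p = 0.189). Without the length and GC trends Ppargc1a no longer passed (-0.22), and Foxo1 turned and passed (0.27, limma adjusted p = 0.0397).

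Of the 30 FOXO1-activated genes with a promoter entry, 6 hold the FOXO motif GTAAACA and 5 the insulin response core CAAAACA, searched on both strands. Of all promoters 3.65% and 6.28% do, and of the genes tested that had an entry 3.05% and 5.10%. The 30 are from the whole list, tested or not. Txnip is among the 6 and Igfbp1 and G6pc among the 5, and none of these was tested. The list was compiled as FOXO1 targets, so these counts say nothing about the falls. The stretches of 2 members that fell are shown with the match in capitals (TGTTTTG is CAAAACA on the opposite strand). The matches are exact letters only.
Klf9, chr19:23141106-23141152, plus strand: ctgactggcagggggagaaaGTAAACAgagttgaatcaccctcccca
Irs2, chr8:11008940-11008986, minus strand: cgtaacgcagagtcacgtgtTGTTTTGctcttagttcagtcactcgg

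Genes of cholesterol and fatty acid synthesis fell. Of 27 tested genes of cholesterol synthesis and SREBP2 targets, 17 fell and 0 rose (median log2 fold change -0.37), beside 30.6% and 12.0% over all genes. Insig1, which holds the SREBPs in the endoplasmic reticulum and is itself an SREBP target, had 34.5, 24.0 and 38.0 TPM in rMSA + insulin, against 97.9, 84.7 and 75.1 TPM in rMSA (-1.41, SE 0.17, limma adjusted p = 0.00303). Hmgcs1, which makes HMG-CoA, had 51.0, 34.0 and 58.7 TPM in rMSA + insulin, against 116, 102 and 86.1 TPM in rMSA (-1.09, SE 0.19, limma adjusted p = 0.00736). The lowest rMSA library lay above every rMSA + insulin library in both. Idi1, the isopentenyl diphosphate isomerase, had a log2 fold change of -1.21, and Nsdhl, a sterol dehydrogenase, of -0.72. Without the length and GC trends 20 of the list fell and 0 rose, and without rMSA library 1 or 2 the counts of falls were 9 and 8.

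Of 19 tested SREBP1 targets and genes of fatty acid synthesis, 11 fell and 2 rose (median -0.34), beside 30.6% and 12.0% over all genes. Scd1, the stearoyl-CoA desaturase, had 155, 114 and 167 TPM in rMSA + insulin, against 338, 291 and 225 TPM in rMSA (-0.96, SE 0.18, limma adjusted p = 0.00797). Its relative Scd2 averaged 406 ± 79.2 TPM in rMSA + insulin and 661 ± 104 TPM in rMSA (SD, n = 3 each, -0.71). Acly, which supplies cytosolic acetyl-CoA, had a log2 fold change of -0.90. Fasn, the fatty acid synthase, had 73.1, 58.2 and 72.4 TPM in rMSA + insulin, against 104, 95.9 and 84.0 TPM in rMSA (-0.48, SE 0.11, limma adjusted p = 0.0145). Its direction turned when only the length trend was removed (0.01). Srebf1 had 80.7, 60.7 and 77.9 TPM in rMSA + insulin, against 101, 92.4 and 84.1 TPM in rMSA (-0.34, limma adjusted p = 0.0467) and did not pass with median centring. The 2 that rose, G6pdx and Pgd, make NADPH. Of the cholesterol list 0 fell in the fit of all 12 libraries, and of the SREBP1 list 0 fell and 1 rose. Without rMSA library 1 or 2 the SREBP1 list had 6 and 5 falls.

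**Figure D4:**
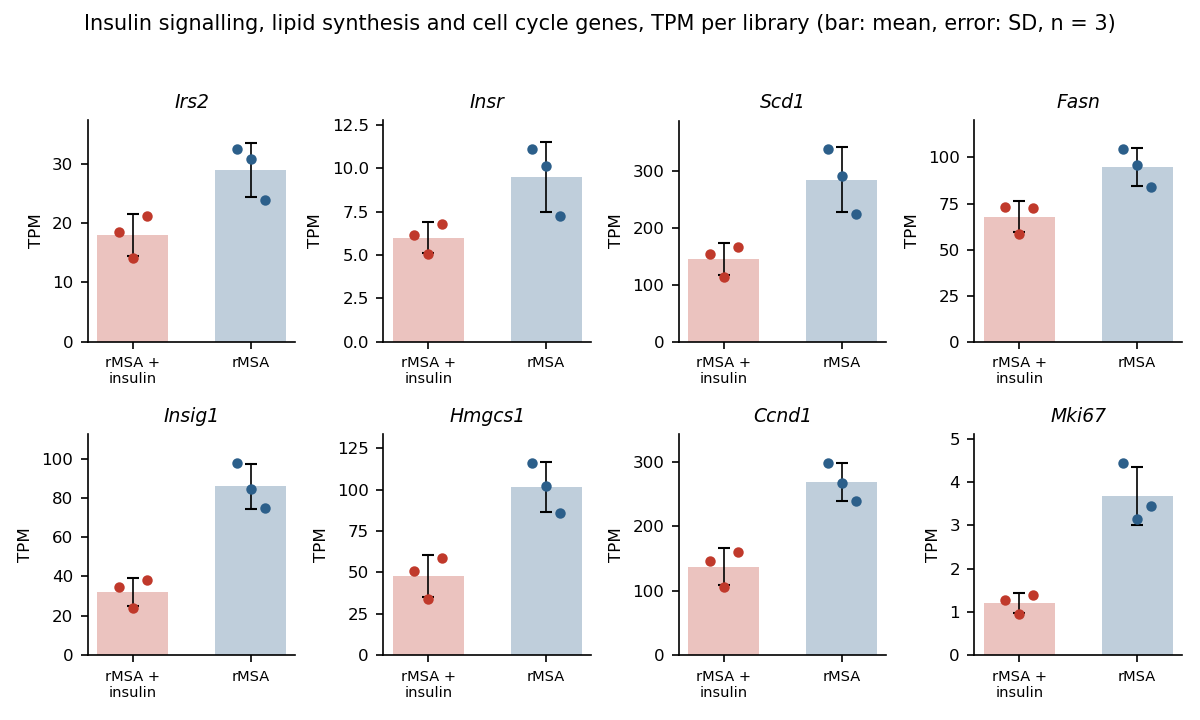
TPM in each library (points) for Irs2, Insr, Scd1, Fasn, Insig1, Hmgcs1, Ccnd1 and Mki67, with rMSA + insulin left of rMSA, bars at the mean and error bars of 1 SD (n = 3). Every rMSA + insulin library lies below every rMSA library in each panel, and in Insr the highest of the first group, 6.80 TPM, is close to the lowest of the second, 7.25 TPM.

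Of 24 tested glycolytic genes, 5 rose and 3 fell (median 0.05), beside 12.0% and 30.6% over all genes. With median centring 11 rose and 3 fell, with quantile normalization 9 and 3, and in the fit of all 12 libraries 0 and 0. Gapdh averaged 10499 ± 601 TPM in rMSA + insulin and 7515 ± 238 TPM in rMSA (SD, n = 3 each), with 0.48 as its log2 fold change and 0.00455 as its adjusted p by limma. Slc2a1, the glucose transporter GLUT1, had 65.7, 62.0 and 73.9 TPM in rMSA + insulin, against 46.9, 44.7 and 35.7 TPM in rMSA (0.66, SE 0.11, limma adjusted p = 0.00720). Pklr, the liver pyruvate kinase, had 124, 105 and 119 TPM in rMSA + insulin, against 169, 157 and 144 TPM in rMSA (-0.43, SE 0.08, limma adjusted p = 0.00939). The mRNA of GLUT1 was therefore higher and that of the liver pyruvate kinase lower, both without overlap. Hk2 was at 0.420 to 0.680 TPM, under the limit for testing. Of 14 tested genes of gluconeogenesis and amino acid catabolism, 6 rose and 1 fell (median 0.13), among them Pck2 (0.42), the mitochondrial PEPCK, which ATF4 also activates. The 6 rises of this list became 2 without rMSA library 1, rMSA library 2 or rMSA + insulin library 1, and 0 in the fit of all 12 libraries. Neither Gapdh nor Slc2a1, Pck2 or Pklr passed in the fit of all 12 libraries.

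Cell cycle genes fell. Of 41 tested, 27 fell and 1 rose (median log2 fold change -0.53), beside 30.6% and 12.0% over all genes. Ccnd1, which encodes cyclin D1, had 146, 105 and 160 TPM in rMSA + insulin, against 298, 267 and 239 TPM in rMSA (-0.98, SE 0.15, limma adjusted p = 0.00565). Mki67, the proliferation marker Ki-67, had 1.28, 0.940 and 1.39 TPM in rMSA + insulin, against 4.45, 3.16 and 3.45 TPM in rMSA (-1.08, SE 0.14, limma adjusted p = 0.00413). Kif11, a spindle motor, had 0.680, 0.480 and 1.08 TPM in rMSA + insulin, against 3.67, 2.91 and 2.48 TPM in rMSA (-1.21, SE 0.17, limma adjusted p = 0.00435). The mitotic genes were thus at a few TPM in rMSA and near 1 TPM with insulin, where adding 1 TPM understates the change. The mitotic cyclins Ccna2 and Ccnb2 had log2 fold changes of -0.93 and -0.86, and Ccnd3, cyclin D3, was the 1 that rose (0.41). The count of falls was 22 without the length and GC trends and 6 in the fit of all 12 libraries, 13 without rMSA library 1 and 17 without rMSA + insulin library 1. In a bulk sample, fewer dividing cells and less of these mRNAs per cell cannot be told apart.

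Genes of growth factor signalling and inflammation moved in both directions, as did all genes tested (12.0% rose and 30.6% fell). Areg, which encodes the EGFR ligand amphiregulin, averaged 78.3 ± 5.40 TPM in rMSA + insulin and 29.7 ± 4.57 TPM in rMSA (SD, n = 3 each), with 1.38 as its log2 fold change and 0.00111 as its adjusted p by limma. Its receptor gene Egfr had 19.5 ± 2.58 and 37.7 ± 5.89 TPM in the same groups (SD, n = 3 each, -0.91, limma adjusted p = 0.00543), and Dusp6, a phosphatase of ERK, had a log2 fold change of -0.94. Of 24 tested ERK feedback genes 2 rose and 10 fell (median -0.30). Of 22 tested AP-1 and immediate early genes 6 rose and 4 fell (median 0.05), with Fosl1 (1.37) and Jund (0.41) among the rises, and Egr1, at 1.16 to 1.69 TPM in rMSA + insulin against 1.19 to 1.45 TPM in rMSA, did not pass. Of 19 tested acute phase genes 6 rose and 7 fell. Saa3, a serum amyloid A, had 3989, 4236 and 4228 TPM in rMSA + insulin, against 2304, 2025 and 2527 TPM in rMSA (0.87, SE 0.08, limma adjusted p = 0.00159). Lcn2, the iron-sequestering lipocalin 2, had a log2 fold change of 0.79, while Cd14, the endotoxin co-receptor, had one of -0.70. Of 31 NF-κB targets and chemokines 10 rose and 12 fell, with Csf3, which encodes G-CSF, at 1.06 and the chemokine gene Ccl9 at -1.29. In the fit of all 12 libraries the ERK list had 1 rise and 0 falls, the AP-1 list 5 and 0, the acute phase list 0 and 2, and the NF-κB list 3 and 1. Without rMSA library 1 or 2 the falls were 0 in the AP-1 list and 5 in the ERK list, and under median centring 12 AP-1 genes rose and 3 fell.

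Of 33 listed hepatocyte markers and transcription factors, 20 averaged 1 TPM or more and were tested, and 15 averaged 5 TPM or more. Alb, which encodes albumin, had 66.9, 33.4 and 47.3 TPM in rMSA + insulin, against 36.9, 23.6 and 32.3 TPM in rMSA, with overlapping groups (log2 fold change 0.62, limma adjusted p = 0.073), and passed without the length and GC trends (0.86, limma adjusted p = 0.0103). Apob, the apolipoprotein of very low-density lipoprotein, fell (-0.97), as did Hnf4a, a transcription factor of hepatocyte identity (-0.58), whereas Apoe rose (0.84). Of 20 tested hepatocyte genes 3 rose and 5 fell (median -0.02), near the 12.0% and 30.6% over all genes. The counts were 1 and 3 without rMSA library 1 or 2, and 0 and 0 in the fit of all 12 libraries, where Apob, Hnf4a and Apoe did not pass. Keratin 19, which marks bile duct cells and is also found in cultured hepatocyte lines, was high in all libraries, with Krt19 at 1111 ± 89.3 TPM in rMSA + insulin and 1097 ± 112 TPM in rMSA (SD, n = 3 each). The 7 bile duct markers in the table, of 10 listed, summed to 1771 to 1948 TPM in rMSA + insulin and 2041 to 2259 TPM in rMSA, and 3 of the 5 tested fell. Markers of other liver cells were near absent. The 7 macrophage markers in the table, of 16, summed to 8.39 to 9.34 TPM in rMSA + insulin and 8.53 to 9.72 TPM in rMSA. The 7 stellate cell markers in the table, of 14, summed to 1.10 to 1.41 TPM in rMSA + insulin and 0.930 to 1.46 TPM in rMSA, with Lum and Rgs5 at 0. The 6 endothelial markers, of 12, summed to 7.30 to 9.12 and 7.16 to 7.94 TPM in the same groups, with Tie1 at 0, and the 5 lymphocyte markers, of 11, to 0.190 to 0.940 and 0.400 to 0.660 TPM.

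Several of the largest rises were in genes that are not typical of liver. Car6, a secreted carbonic anhydrase, had 13.6, 22.4 and 21.9 TPM in rMSA + insulin, against 1.31, 2.65 and 0.560 TPM in rMSA (log2 fold change 3.07, SE 0.31, limma adjusted p = 0.00168). Cdsn, which encodes the skin adhesion protein corneodesmosin, had 44.5, 55.8 and 50.5 TPM in rMSA + insulin, against 6.21, 9.38 and 5.83 TPM in rMSA (2.67, SE 0.17, limma adjusted p = 0.000446). Angptl6, a liver-secreted angiopoietin-like factor, averaged 38.1 ± 5.38 TPM in rMSA + insulin and 7.19 ± 1.22 TPM in rMSA (SD, n = 3 each, 2.26). Also among the largest rises were the pancreatic trypsin gene Try5 (2.37), the muscle isoform of a cytochrome oxidase subunit, Cox6a2 (2.03), and the integrin gene Itgb7 (1.96). Of the 46 genes called higher, 7 have only a model name (Gm, LOC or Rik), and their median transcript length was 1214 bases against 3245 bases for those called lower and 2098 bases over all genes. The median GC content was 55.2% for genes called higher, against 44.6% for those called lower and 50.9% over all genes.

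Zbed6, Peg3 and Slc25a30, which were among the largest falls, had the same order of libraries as long transcripts. Zbed6, a transposon-derived repressor of Igf2, had 0.380, 0.210 and 0.960 TPM in rMSA + insulin, against 11.8, 9.12 and 3.75 TPM in rMSA (log2 fold change -2.52, SE 0.35, limma adjusted p = 0.00443). Peg3, an imprinted zinc-finger gene, had 40.4, 28.1 and 48.3 TPM in rMSA + insulin, against 167, 146 and 114 TPM in rMSA (-1.86, SE 0.20, limma adjusted p = 0.00222). Slc25a30, a mitochondrial carrier, had 7.18, 3.47 and 10.3 TPM in rMSA + insulin, against 38.0, 32.3 and 19.7 TPM in rMSA (-2.01, SE 0.35, limma adjusted p = 0.00706). In all of these the second rMSA + insulin library was the lowest and the third rMSA library the lowest of its group, the order that long transcripts as a whole also had. The scores of the first principal component had this order too, as did Insig1, Scd1 and Ccnd1, so it is not particular to the largest falls. Megf9 and Tnks, which encodes tankyrase 1, each had a log2 fold change of -1.87. Without the length and GC trends the log2 fold change was -1.94 for Zbed6, -1.83 for Slc25a30, -1.59 for Tnks, -1.32 for Peg3 and -1.21 for Megf9. Of these genes Peg3 passed in the fit of all 12 libraries. With rMSA + insulin library 2 and rMSA library 3 left out, 1364 genes rose and 3981 fell.

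Whether insulin acted differently with rMSA than without it was tested as the difference between its effect in rMSA (rMSA + insulin over rMSA) and its effect without rMSA (insulin over vehicle), in a fit of all 12 AML12 libraries. The difference passed for 4 genes, all with a larger rise under rMSA (0.0368% of genes), and for 0 in the other direction (0%). The unadjusted p of the difference was under 0.05 for 707 genes. Atf3 had 52.7 ± 5.73 TPM in rMSA + insulin, 15.8 ± 1.20 in rMSA, 34.2 ± 8.16 in insulin and 34.4 ± 2.89 in vehicle (SD, n = 3 each), and the difference was 1.71 (SE 0.23, limma adjusted p = 0.0473). Gdf15 had 42.8 ± 0.707, 19.0 ± 1.76, 25.1 ± 2.37 and 26.4 ± 1.04 TPM in the same order (SD, n = 3 each, difference 1.21, SE 0.14, limma adjusted p = 0.0215). For both genes rMSA alone gave the lowest level and rMSA + insulin the highest of the 4 groups. Ier3, an immediate early gene that protects against cell death, had 794 ± 2.41, 526 ± 5.86, 153 ± 1.90 and 163 ± 6.91 TPM in that order (SD, n = 3 each, difference 0.68, limma adjusted p = 0.0215). Itgb7 had 26.5 ± 3.29, 6.06 ± 0.746, 2.47 ± 0.678 and 1.86 ± 0.0656 TPM in the same order (SD, n = 3 each, difference 1.70, limma adjusted p = 0.0473). None of the 4 differences passed with median centring, quantile normalization or a rescaling, and without any 1 of the vehicle, rMSA or rMSA + insulin libraries the count was 0. Without insulin library 1, 2 or 3 it was 3, 21 and 333, and without insulin libraries 1 and 2 it was 7.

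**Figure D5:**
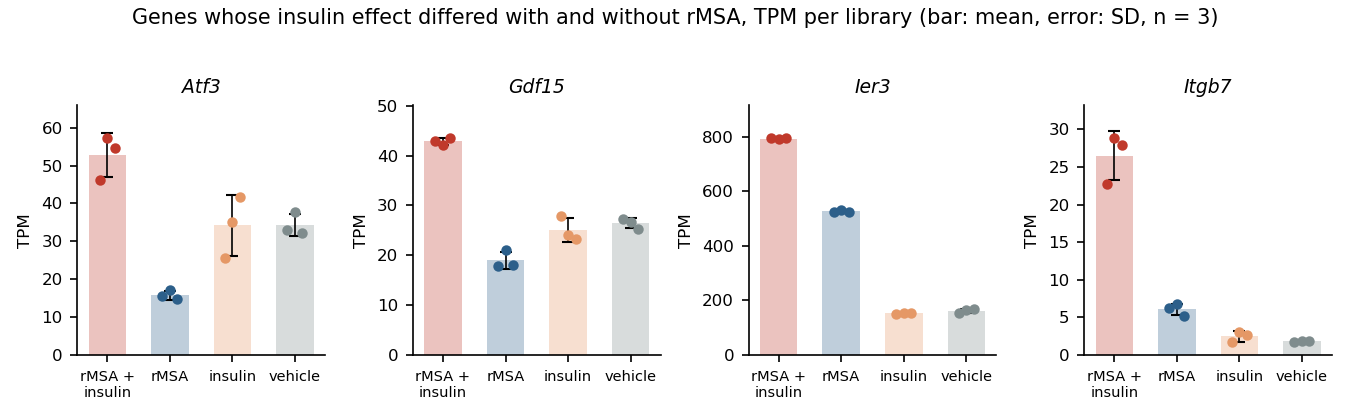
TPM in each library (points) of the 4 genes that passed the test of the difference between the insulin effects with and without rMSA. None of them passed it with median centring. Groups are rMSA + insulin, rMSA, insulin and vehicle from left to right, with bars at the mean and error bars of 1 SD (n = 3). Atf3 and Gdf15 are lowest in rMSA and highest in rMSA + insulin, whereas insulin and vehicle lie close together.

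For the gene lists the insulin effects with and without rMSA are given side by side. The ATF4 list had a median log2 fold change of 0.53 with rMSA and -0.05 without it, and 31 of its 36 members were higher with insulin under rMSA, against 15 without rMSA. Over all 10882 genes 3745 were higher with insulin under rMSA and 2357 without rMSA. The cholesterol list had medians of -0.37 with rMSA and -0.90 without it, the FOXO1 list -0.60 and -0.79, and the cell cycle list -0.53 and -0.27. Over all genes the medians were -0.15 with rMSA and -0.29 without it. Of the insulin libraries without rMSA, only the third resembled the vehicle libraries in its share of ribosomal protein genes, and with that library alone the medians without rMSA were 0.21 for the ATF4 list, -0.42 for the cholesterol list, -0.03 for the FOXO1 list, 0.05 for the cell cycle list and 0.03 over all genes. No test was run on these medians.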

How the data were processed

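RNA was measured by sequencing of rRNA-depleted libraries on a BGISEQ instrument. The labels' protocol also describes purification with oligo(dT) and random priming. Per the submitters' processing notes, Trimmomatic 0.33, STAR 2.5.2b, featureCounts and Subread 1.6.0 were used with the mouse genome GRCm38. Annotation, strand setting and how TPM was calculated were not given in the sources used here. The authors deposited TPM values per gene and library, rounded and with no counts, so that depth and counting error are unknown. TPM is relative within a library, so a change in a few abundant genes moves all others. The liver libraries of the series were not used here.

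Genes whose TPM averaged 1 or more across the 6 libraries were tested on log2(TPM + 1), a pseudocount of 1, which understates the change of low genes. limma 3.58.1 in R 4.3.3 (empirical Bayes with a mean-variance trend, two-sided, Benjamini-Hochberg over all genes tested) was fitted to the 6 libraries only, and the difference of the insulin effects to all 12 AML12 libraries. Genes passed at an adjusted p under 0.05 and were called where the log2 fold change was also 1 or more in size. On simulated data of the same size, 85% of 200 genes changed by 1 on the log2 scale and 99% of those changed by 2 were recovered. Of the unchanged genes, 4 and 9 passed. In the simulation 200 genes were changed, against 1307 that rose and 3333 that fell here, so these shares describe the simulation only. Transcript length and GC content are medians over the protein-coding transcripts of GENCODE, with a value for 97.5% of genes tested. Their trends were removed within each library, which also centres it, as an alternative chosen after seeing the data. Leaving out rMSA + insulin library 2 with rMSA library 3 was chosen in the same way. Gene positions and promoters are from RefSeq (GRCm38.p6), which matched 15531 of the 15579 gene IDs.

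Genes were named by rule: the 15 largest rises and 15 largest falls without overlap, the 10 smallest p-values, up to 4 genes of each list with the smallest p, a fixed set of insulin response genes, and the genes past the test of the difference. Members named beyond this rule, such as Aars, Gars, Chac1, Psph, Psat1, Slc38a2, Npm1, Nfe2l2, Gclc, Acly, Akt1, Akt2, Pik3ca, Pdpk1, Klf9, Chchd10, Pgd, Ccnd3, Krt19 and Hspa5, were chosen after their values were seen. Some genes of the fixed set are not reported here. The members and lists were chosen with earlier results of these data known. Lists are described by counts and medians with no test. Other pseudocounts, filters, scalings, weights and left-out libraries were tried as alternatives.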

Additional observations from a re-analysis of the deposited data

Results flagged for a closer look

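By limma over all 12 AML12 libraries, 4 genes passed the test of the difference between the insulin effects with and without rMSA. The count was 0 with median centring, quantile normalization, either rescaling or a replicate block. It was also 0 without any 1 of the vehicle, rMSA or rMSA + insulin libraries. The difference (effect with rMSA minus effect without it, log2) was 1.71 for Atf3, 1.21 for Gdf15, 0.68 for Ier3 and 1.70 for Itgb7. In rMSA + insulin all 3 libraries lay above all 3 rMSA libraries for each of these genes, whereas for Atf3, Gdf15 and Itgb7 the insulin and vehicle libraries overlapped.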

How the results depend on the processing

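Of the 45 named genes that rose, all still passed with another pseudocount, median centring or quantile normalization, and of the 42 that fell 3 were lost with median centring and 7 without the length and GC trends. In the fit of all 12 libraries 9 of the rises and 36 of the falls were lost. The number of genes passing was 10103 with array weights and 447 with all 12 libraries, and 1644 to 5162 with 1 library left out. The number called was 596 and 116 with pseudocounts of 0.1 and 5 TPM, 189 with median centring, 194 with quantile normalization, 55 with all 12 libraries, 164 without the length trend, 124 without the GC trend, 109 without both, and 170 to 611 with 1 library left out. The difference of the insulin effects passed for 2 and 8 genes with pseudocounts of 0.1 and 5 TPM, 0 with median centring, quantile normalization or either rescaling, 4471 with array weights, 2 with robust empirical Bayes, 1 without the mean-variance trend, 2, 7 and 12 without the length, GC and both trends, 7 without insulin libraries 1 and 2, and 0 to 333 with 1 library left out. With a replicate block 1990 genes passed for the insulin effect (586 rose and 1404 fell) and 0 for the difference. Same-numbered libraries did not deviate together (correlations of 0.12, -0.21 and -0.61 across genes), so the numbers were not taken as pairs. Small changes turned sign: Akt1 to 0.16 and Psat1 to 0.12 with median centring, Psat1 to 0.077, 0.15 and 0.13 without the length, GC and both trends, Foxo1 to 0.10 with quantile normalization and to 0.27, 0.028 and 0.27 without the length, GC and both trends, Irs1 to 0.047 and 0.00017 without the length and both trends, Fasn to 0.011 without the length trend, Npm1 to 0.11 and Krt19 to -0.024 without the GC trend, Akt2 to -0.064 and Krt19 to -0.072 without both, and Myc to -0.035 with array weights. With 1 library left out, the log2 fold change was -0.10 to 0.0018 for Akt1, -0.056 to 0.10 for Akt2, -0.067 to 0.21 for Myc, -0.18 to 0.0030 for Psat1 and -0.032 to 0.10 for Krt19. The causes were not tested. The unknown depth and 3 libraries a group limit all of these values.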
